A study of Schizosaccharomyces pombe with 4 samples.

Results

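The genes described here are the 7 actin and tubulin cytoskeleton genes act1, cdc3, cdc8, adf1, nda2, atb2 and nda3 of fission yeast, *S. pombe*, taken by name from a table of 5129 protein-coding genes and 9111 transcription units in all. The choice was by name and not by a threshold on their values, but earlier results of these data were known. The comparison is between nascent and total RNA. In NET-seq, RNA is recovered together with elongating RNA polymerase II (RNAPII), so that the reads mark transcripts still being made. There were 2 IP libraries, from RNA co-purified with the FLAG-tagged RNAPII subunit Rpb3, and 2 input libraries, from the total RNA of those same cultures. All 4 libraries came from 1 wild-type strain, YAM2492 (rpb3-flag), harvested in mid-log phase from YES, a rich medium. No treatment or mutant was compared, and the tag was present in every library.

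Actin filaments in fission yeast form the endocytic patches, the polarity cables and the contractile ring, and microtubules, built from dimers of α- and β-tubulin, position the nucleus and form the spindle. act1 is the only actin gene. cdc3 encodes profilin, which binds actin monomers and feeds formin-driven filament growth. cdc8 encodes tropomyosin, which coats the filaments of cables and ring, and adf1 encodes cofilin, which severs them. nda2 and atb2 encode the 2 α-tubulins, of which nda2 is essential and atb2 is not, and nda3 encodes the single β-tubulin. The total level of an RNA depends on both its synthesis and its decay, whereas the RNAPII-bound signal follows synthesis.

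The members differ in their exon structure, which matters for short reads. act1 and atb2 have no intron in the coding sequence. cdc8 and nda2 have 1 intron, cdc3 and adf1 have 2, and nda3 has 5, most of them crowded into the start of the gene. The stretches below show the 5′ coding segments whose reads are compared later. They were read from the RefSeq genome ASM294v3, in which all 18 coding (CDS) segments of the members have the coordinates given in the deposited table. Coding segments are in capitals and introns in lower case, 5′ to 3′ on the gene's strand.
nda3, CDS segments 2 to 4 with introns 2 and 3 (chrII:3965638-3965876, minus strand): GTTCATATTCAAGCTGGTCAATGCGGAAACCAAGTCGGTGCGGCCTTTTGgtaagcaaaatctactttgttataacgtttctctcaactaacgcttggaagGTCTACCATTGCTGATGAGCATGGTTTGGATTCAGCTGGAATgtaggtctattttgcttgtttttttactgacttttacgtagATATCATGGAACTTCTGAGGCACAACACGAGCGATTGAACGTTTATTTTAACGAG
cdc8, CDS segment 1, intron 1 and the first bases of segment 2 (chrI:4320108-4320204, minus strand): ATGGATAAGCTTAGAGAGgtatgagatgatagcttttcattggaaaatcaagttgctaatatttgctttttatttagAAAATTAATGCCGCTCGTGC
nda2, CDS segment 1, intron 1 and the first bases of segment 2 (chrII:4268991-4269155, plus strand): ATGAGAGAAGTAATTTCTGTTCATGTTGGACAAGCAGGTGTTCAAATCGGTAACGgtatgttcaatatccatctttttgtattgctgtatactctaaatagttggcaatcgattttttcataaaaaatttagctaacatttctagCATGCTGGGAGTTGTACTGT
In the nda3 stretch the 3 exons measure 50, 42 and 55 nt and the introns 51 and 41 nt. The first CDS segment of cdc8 is 18 nt long, and that of nda2 is 55 nt. Both genes are annotated from further upstream, so the exons that hold these segments can be longer.

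The 2 α-tubulin genes are close relatives, and unique mapping could in principle lose reads to either. Their coding sequences aligned with 1030 of 1368 positions identical (75.3%). The longest run without a difference was 29 nt, shown in capitals within each gene's own flanks.
nda2 (chrII:4270275-4270333, plus strand): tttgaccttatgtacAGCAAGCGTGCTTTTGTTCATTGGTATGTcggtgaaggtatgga
atb2 (chrII:260834-260892, minus strand): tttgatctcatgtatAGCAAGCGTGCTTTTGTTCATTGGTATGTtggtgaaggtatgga
This run is shorter than the sequenced length of 50 nt. The windows counted here take reads at that full length, before any trimming. Of all 50-nt windows, 10 of 1801 in nda2 and 10 of 1759 in atb2 matched the other gene with up to 2 mismatches. None did in the other 5 genes.

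The IP libraries came to 7100000 and 7117477 mapped reads and the input libraries to 9082385 and 9823089, on a scale fixed by 1 stated total. Reads from tRNAs made up 5.59% and 5.79% of the IP libraries, against 94.5% and 89.9% of the input libraries. With rRNA and snRNA added, the IP libraries held 2842793 and 2937587 such reads, so a large part of the IP reads was structural RNA. The input libraries held 8660296 and 8942180. The median protein-coding gene therefore had 369 and 338 reads in IP but 17 and 35 in input. Since values are shares of all mapped reads, nearly every protein-coding gene was higher in IP. The median change over protein-coding genes was 3.28 on the log2(RPKM + 1) scale, where RPKM is reads per kilobase scaled to the mapped reads of the library. The p-values below measure the spread between these libraries, 2 biological replicates a group.

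act1 had the highest signal of the 7 genes in every library. It lies on chromosome II at 1475485-1477317, minus strand, in the build of the deposited files, ASM294v2. It had 605 and 621 RPKM in IP, against 68.5 and 138 RPKM in input. Its mean IP signal was above that of 99.3% of protein-coding genes and its mean input signal above that of 98.9%. The IP replicates lay close together, while input replicate 2 was 2.01 times input replicate 1, and the IP and input values did not overlap. The change was 2.64 ± 0.47 (log2, SE; limma adjusted p = 0.0067), a fold of 5.94 between the means. These values rest on 7872 and 8099 reads in IP and 1140 and 2481 reads in input.

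The 3 actin-binding members had nascent signals close to each other. adf1, cofilin (chromosome I, 4825257-4826099, minus strand), had 109 and 122 RPKM in IP, against 17.5 and 33.9 RPKM in input. cdc8, tropomyosin (chromosome I, 4319247-4320285, minus strand), had 125 and 99.7 RPKM in IP, against 11.7 and 18.6 RPKM in input. cdc3, profilin (chromosome I, 2578956-2579514, minus strand), had 94.2 and 94.0 RPKM in IP, against 9.26 and 17.3 RPKM in input. All 3 were thus several-fold below act1 in both kinds of library. In IP, the replicate ranges of adf1 and cdc8 overlapped, and both lay above cdc3. In input, adf1 and cdc8 overlapped, as did cdc8 and cdc3. adf1 had the smallest change of the 7 genes, 2.19 ± 0.44 (log2, SE; limma adjusted p = 0.0098). The change of cdc3 was 2.80 ± 0.41 (adjusted p = 0.0034) and that of cdc8 2.84 ± 0.38 (adjusted p = 0.0026), both by limma.

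Among the tubulin genes, the β-tubulin gene nda3 and the α-tubulin gene nda2 stood above atb2. nda3 (chromosome II, 3964092-3966037, minus strand) had 109 and 116 RPKM in IP, against 6.96 and 15.2 RPKM in input. nda2 (chromosome II, 4268920-4270761, plus strand) had 85.9 and 86.3 RPKM in IP, against 5.26 and 10.9 RPKM in input. atb2 (chromosome II, 260309-262185, minus strand) had 62.7 and 51.7 RPKM in IP, against 4.34 and 8.03 RPKM in input. atb2 was the lowest of the 7 in every library. In IP the ranges of nda3, nda2 and atb2 did not overlap. In input each overlapped its neighbour in the order, although nda3 exceeded nda2 and nda2 exceeded atb2 in both replicates. The changes were 3.32 ± 0.46 for nda3, 3.33 ± 0.42 for nda2 and 3.06 ± 0.38 for atb2 (log2, SE; limma adjusted p = 0.0029, 0.0023 and 0.0021).

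**Figure D1:**
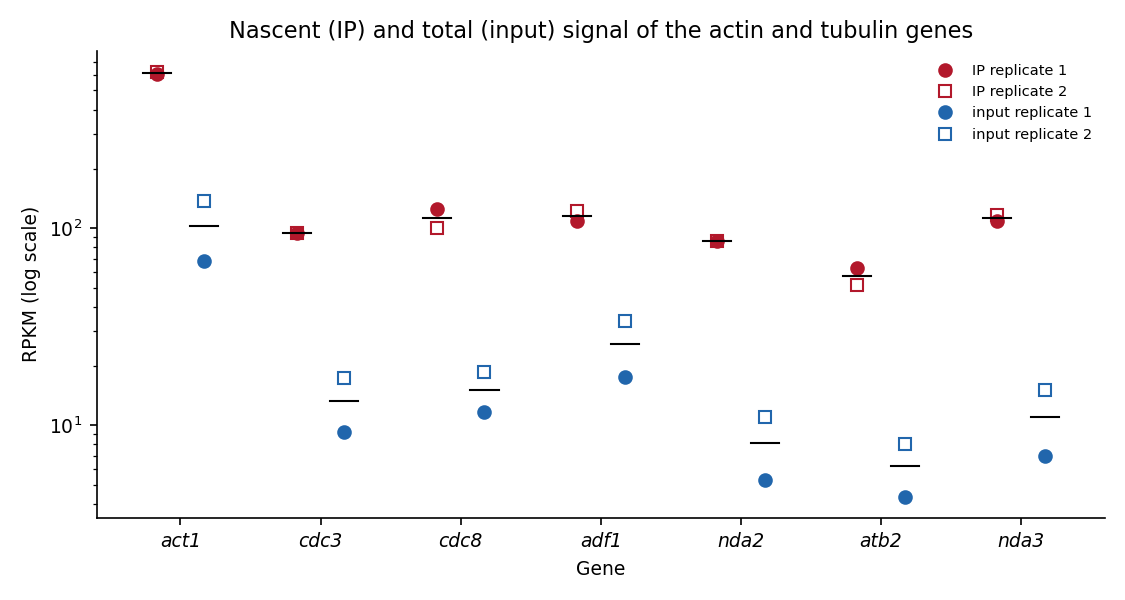
Signal of each gene in every library (RPKM, log axis), with IP in red on the left and input in blue on the right of each gene, circles for replicate 1, squares for replicate 2 and bars for the mean of 2. The IP values of act1 (605 and 621 RPKM) stand apart from the other genes, and every gene has a higher value in input replicate 2 than in input replicate 1.

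All 7 genes were thus called higher in IP, which does not set them apart. Of 8912 units tested, 92.8% were called higher by the same fit, and of 5068 protein-coding genes 98.3%. When IP replicate 1 or 2 was left out, the changes lay between 2.11 for adf1 and 3.37 for nda3. cdc8 was at 2.675 without IP replicate 1 and 2.998 without IP replicate 2, and atb2 at 2.925 and 3.197. Leaving out an input library moved every member further. act1 was at 2.145 without input replicate 1 and 3.143 without input replicate 2, and nda3 at 2.811 and 3.834. In the fits without an IP library the spread within groups came from the input libraries alone, and the lone IP library was assumed to vary like them. Calls from fits without 1 library are therefore not given. Input replicate 2 exceeded input replicate 1 by 1.60 to 2.18 times in the 7 genes, beside a median shift of 0.53 (log2) over protein-coding genes. IP replicate 2 was 0.798 to 1.12 times IP replicate 1 in the 7 genes.

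The change relative to other protein-coding genes separated the members. The median over the 7 was 2.84, against 3.28 over all protein-coding genes. adf1 was 1.08 below that median in log2 units, act1 0.63 below, cdc3 0.48 below, cdc8 0.44 below and atb2 0.22 below, whereas nda2 was 0.06 above and nda3 0.05 above. The side of nda2 and nda3 depended on the scale: with edgeR and TMM factors all 7 genes lay below the protein-coding median of 0.07, and with a pseudocount of 10 RPKM all 7 lay above the median of 1.62. When the libraries were centred on the protein-coding median, 5 of the 7 were called lower in IP by limma, where 35.0% of protein-coding genes were. Equal medians of the libraries still left the median change of protein-coding genes at -0.23, so the changes after centring include that offset: atb2 at -0.44 was 0.22 below it, and nda2 and nda3 were 0.06 and 0.05 above it. After centring, nda2 (log2 change -0.17, limma adjusted p = 0.44) and nda3 (log2 change -0.18, limma adjusted p = 0.43) were not called. With edgeR and TMM all 7 were called lower, from -0.61 for nda2 to -1.85 for adf1, where 19.4% of protein-coding genes were.

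Much of this spread went with the level in input, which enters both quantities. Over all protein-coding genes the median change was 3.29 for the 348 genes between 5 and 10 RPKM in input, 3.02 for the 179 genes between 10 and 20, 2.78 for the 128 genes between 20 and 50, and 2.23 for the 147 genes above 50. Set against genes of their own band, nda2 and atb2 (between 5 and 10 RPKM) and cdc3, cdc8 and nda3 (between 10 and 20 RPKM) fell within the quartiles of the change. The band of adf1 had quartiles of 2.55 and 3.19, and adf1 lay below them at 2.19. The band of act1 had quartiles of 1.92 and 2.51, and act1 lay above them at 2.64. That band has no upper bound, so act1, at a mean of 103 RPKM in input, was not set against genes of like level alone. With edgeR and TMM the same pair stood outside on the same sides: adf1 at -1.85 had quartiles of -1.50 and -0.84 in its band, and act1 at -1.44 had quartiles of -2.16 and -1.56.

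**Figure D2:**
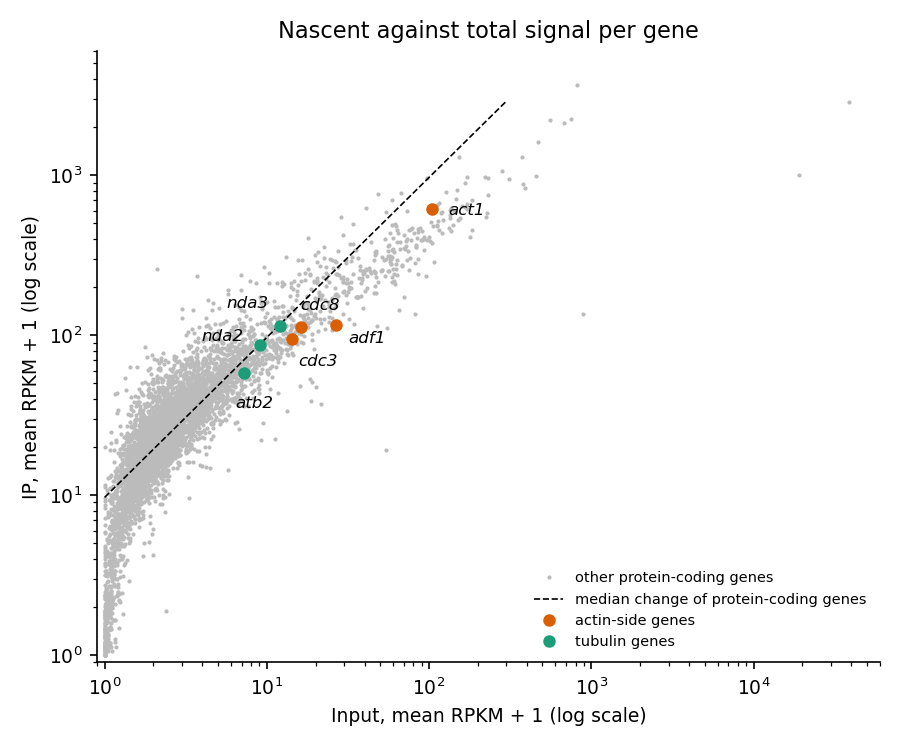
Mean IP signal against mean input signal of every protein-coding gene (RPKM + 1, both axes log), with the 4 actin-side genes in orange and the 3 tubulin genes in green; the dashed line marks the median change of 3.28. nda2 and nda3 lie on the line, adf1 lies lowest relative to it, and the cloud bends below it at high input levels.

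Ratios between members within a library do not depend on the library total. act1 carried 5.55 and 5.10 times the RPKM of adf1 in IP, against 3.91 and 4.06 times in input. act1 carried 5.57 and 5.33 times the RPKM of nda3 in IP, against 9.84 and 9.08 times in input. So relative to act1, adf1 was the lower in nascent RNA and nda3 the higher, and in neither ratio did the IP and input values overlap. For act1 over cdc3 the ratios were 6.42 and 6.60 in IP, against 7.40 and 7.96 in input, again without overlap. For act1 over cdc8 they were 4.85 and 6.23 in IP, against 5.87 and 7.40 in input, which overlapped.

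The mean log2(RPKM + 1) of the 4 actin-side genes less that of the 3 tubulin genes was 0.99 and 1.01 in IP, against 1.65 and 1.59 in input. The actin-side genes therefore led the tubulin genes by 0.62 less in nascent than in total RNA, a gap well beyond the spread between replicates (SD 0.016 in IP and 0.041 in input, n = 2 each). The exact two-sided permutation test gave p = 0.33, the smallest value that 2 against 2 libraries allow. This contrast was added after the values were seen. The 2 sets also differ in their input level. Over all protein-coding genes the median change was 3.29 between 5 and 10 RPKM in input and 2.78 between 20 and 50. How much of the gap of 0.62 went with input level was not tested.

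The α-tubulin pool was split in much the same way in nascent and total RNA. nda2 gave 57.4% of the nda2 and atb2 reads in IP replicate 1 (95% Wilson interval 55.1% to 59.5% of 1958 reads) and 62.1% in IP replicate 2 (59.8% to 64.3% of 1822 reads). It gave 54.3% in input replicate 1 (46.6% to 61.8% of 162 reads) and 57.2% in input replicate 2 (52.0% to 62.3% of 346 reads). The intervals cover counting error only. Per kilobase the share was 57.8% and 62.5% in IP, against 54.8% and 57.7% in input, a difference of 3.93 percentage points that stood higher in both pairs (exact permutation p = 0.33, the smallest possible). The IP replicates differed from each other by more than this. Counted on coding segments alone the shares were 58.0% and 63.0% in IP, against 56.2% and 60.2% in input.

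The signal of the β-tubulin gene was below the summed signal of the α-tubulin genes in every library. nda3 RPKM over the sum of nda2 and atb2 RPKM was 0.731 and 0.844 in IP, against 0.725 and 0.800 in input. The difference of 0.025 was smaller than the spread between replicates (SD 0.080 in IP and 0.053 in input, n = 2 each; exact permutation p = 0.67), and its sign turned when IP replicate 2 or input replicate 1 was left out.

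**Figure D3:**
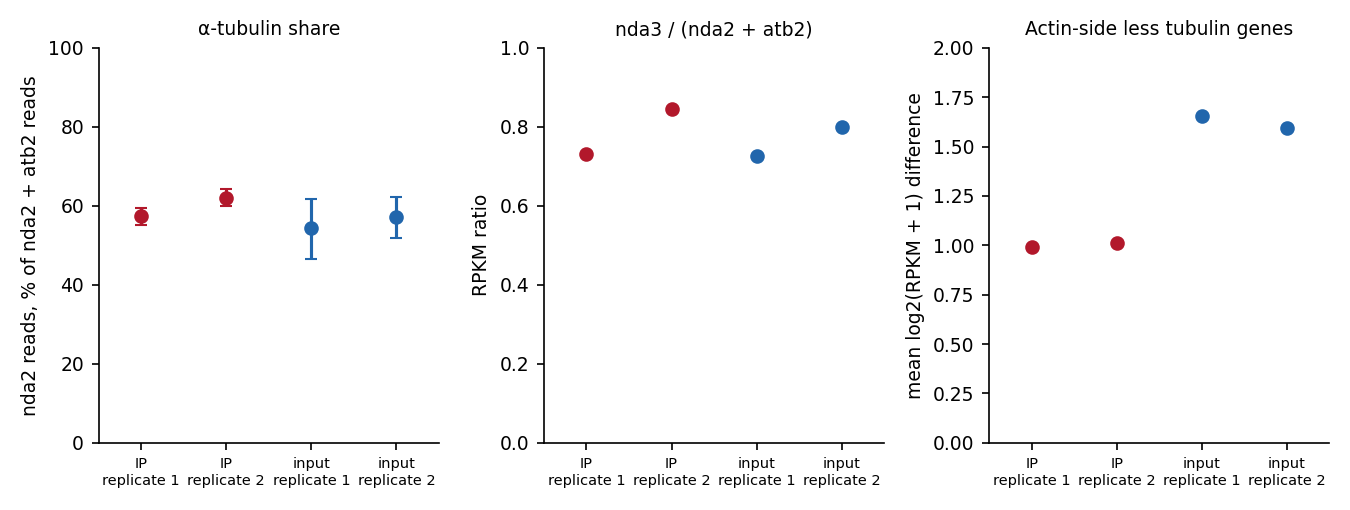
Relative quantities within each library, with IP in red on the left and input in blue on the right: the nda2 share of α-tubulin reads with 95% Wilson intervals, the RPKM ratio of nda3 to nda2 plus atb2, and the mean log2 difference of actin-side less tubulin genes. The first and second differ little between IP and input, and the third is 0.99 and 1.01 in IP, against 1.65 and 1.59 in input.

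Reads along the coding segments separated nascent from total RNA in nda3, cdc8 and nda2. Each segment was expressed as reads per 100 reads of the longest coding segment of the same gene in the same library. In nda3, whose 5′ exons are printed above, segment 2 had 24.0 and 20.1 in IP, against 1.33 and 5.75 in input. Segment 3 had 14.7 and 15.1 in IP, against 4.0 and 3.45 in input. Segment 4 had 19.7 and 16.5 in IP, against 9.33 and 9.20 in input. The last segment, of 302 nt, had 23.9 and 25.4 in IP, against 20.0 and 26.4 in input. The short 5′ exons thus stood higher in IP without overlap, and the last segment did not. Input counts here were small, 1 and 10 reads on segment 2 against 167 and 157 reads in IP.

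The widest contrast of this kind was in cdc8. Its 18-nt first coding segment had 183 and 107 reads in IP, against 3 and 3 in input. Per 100 reads of segment 2 that was 36.8 and 25.5 in IP, against 4.23 and 2.14 in input, and the pooled ratio of IP to input was 11.1. The 55-nt first segment of nda2 had 184 and 157 reads in IP, against 2 and 13 in input. Per 100 reads of segment 2 that was 22.5 and 18.4 in IP, against 2.63 and 7.83 in input, with a pooled ratio of 3.29, or 7.76 without input replicate 2. In cdc3 neither short segment separated: its 13-nt first segment had 6.60 and 4.68 in IP, against 2.63 and 6.76 in input, and its 38-nt last segment 11.5 and 20.1 in IP, against 15.8 and 13.5 in input. In adf1 the 106-nt second segment had 35.3 and 38.5 in IP, against 20.0 and 21.4 in input.

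Such differences were common. Both IP values lay above both input values in 8 of the 11 segments of the members other than the longest, and in 68.9% of 1026 such segments in genes with at least 20 input reads per library on the longest segment, so the members' share was near the background. By position, that held for 76.6% of first, 75.3% of internal and 23.6% of last segments. A 50-nt read of spliced RNA has no unsplit position inside an exon of 42 nt, 1 inside an exon of 50 nt and 6 inside an exon of 55 nt, and Bowtie aligns reads without splitting them. These counts are for whole exons, such as the internal ones of nda3, and for reads that kept all 50 nt after trimming. A first or last CDS segment can be part of a longer exon, so they need not describe the segments of cdc8, nda2 and cdc3. Among first segments under 50 nt the median ratio of IP to input was 4.92, and cdc8 was above 79.0% of those 210 segments while cdc3 was above 2.38% of them. In nda3, segment 2 was above 75.2% and segment 4 above 22.9% of 105 internal segments of 50 to 99 nt (median 2.86). Segment 3 of nda3 was above 26.15% of 65 internal segments under 50 nt (median 5.92). Among first segments of 50 nt or more the median was 1.84, and nda2 was above 81.0% of those 332 segments. At 55 nt the nda2 segment lies near the lower bound of that class, which has no upper bound. Its rank was therefore not among segments of like length. Among first and internal segments, the ratio of IP to input summed over a class differed by length at either position: it was 3.06 for internal and 3.02 for first segments under 50 nt, 2.29 for internal segments of 50 to 99 nt, 1.20 for internal segments of 100 nt or more and 1.14 for first segments of 50 nt or more. Where the reads on the short segments of the members came from was not tested.

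**Figure D4:**
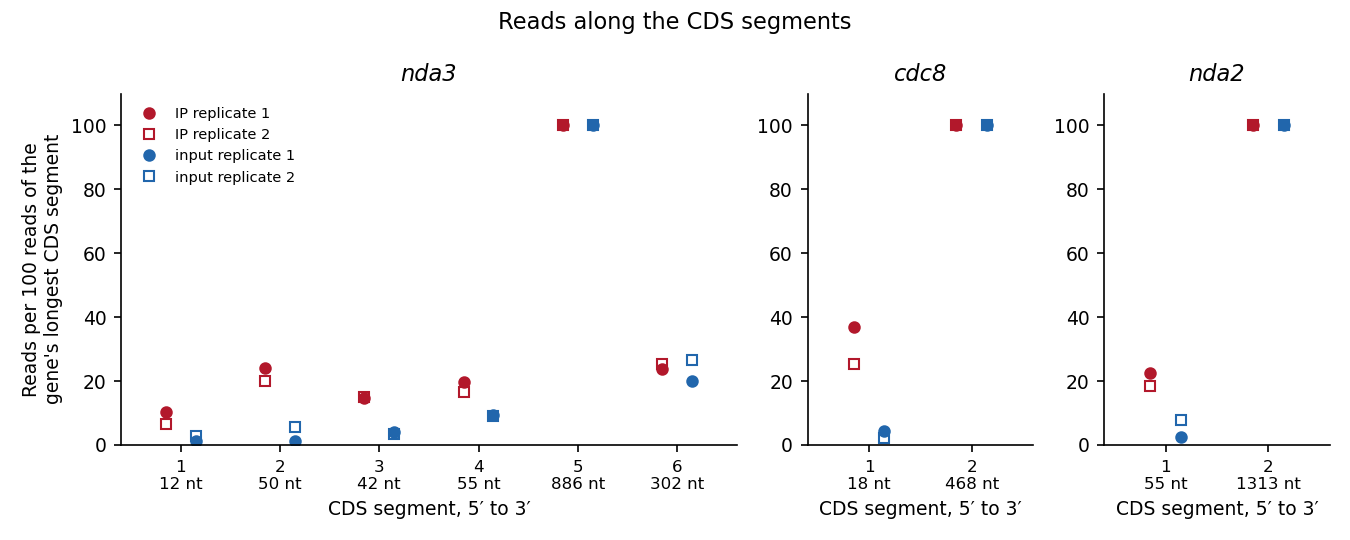
Reads on each coding segment per 100 reads of the longest segment of the gene (set to 100), 5′ to 3′, with IP in red on the left and input in blue on the right of each segment, circles for replicate 1 and squares for replicate 2. The 5′ segments of nda3, cdc8 and nda2 are higher in both IP libraries than in both input libraries, and the last segment of nda3 is not.

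For the members without an intron in the coding sequence, reads inside and outside it were compared. Introns outside the coding sequence were not checked. Of the act1 reads, 26.8% and 29.2% in IP fell outside the coding segment, against 28.5% and 26.9% in input, where 38.5% of its annotated length lies. Of the atb2 reads, 14.0% and 15.6% in IP fell outside, against 18.9% and 20.9% in input, beside 28.1% of the length. The atb2 shares did not overlap between IP and input, but the Wilson intervals did (11.8% to 18.5% over the IP libraries and 11.6% to 29.3% over the input libraries).

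Few other units were annotated within the members. act1 was the only one with units annotated on the other strand. These were the nc-TUs novelncTU_148, with 6 and 3 reads in IP but 0 in both input libraries, and novelncTU_149, with 3 and 4 reads in IP but 0 in both input libraries, where a count of 0 allows up to 3 reads. Both stand far below the 7872 and 8099 sense reads of act1 in IP. On the same strand, brx1-antisense-1 shares 61 nt with the 5′ end of atb2 and had 108 and 126 reads in IP, against 5 and 8 in input, so a few reads may be counted in both. No unit overlapped the other 5 genes.

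The closest convergent neighbour was mei4, 200 bp beyond the 3′ end of act1, which encodes a meiotic transcription factor. mei4 had 33.0 and 30.1 RPKM in IP, against 0.153 and 0.236 RPKM in input; the input values rest on 3 and 5 reads. SPBC16A3.14 ends 230 bp from nda2 and had 24.1 and 20.7 RPKM in IP, against 1.80 and 3.42 RPKM in input. The other nearest genes were mok12 beside act1, SPAC4A8.14 and tif33 beside cdc3, pan1 and uch1 beside cdc8, SPAC20G4.05c and SPAC20G4.09 beside adf1, coa5 beside nda2, rpl4301 and brx1 beside atb2, and sdh8 and grn1 beside nda3. Among these, only rpl4301 (628 and 551 RPKM in IP, against 83.6 and 154 RPKM in input), tif33 (188 and 167 RPKM in IP, against 13.3 and 28.2 RPKM in input) and brx1 (89.0 and 88.6 RPKM in IP, against 5.37 and 8.82 RPKM in input) stood above their neighbouring member in mean IP signal.

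The genes whose 4 values were most like those of a member were found by Euclidean distance on log2(RPKM + 1). For act1 these were the ribosomal protein genes rpl6 (distance 0.32) and rpl22 (distance 0.32). rpl6 had 711 and 624 RPKM in IP, against 76.7 and 152 RPKM in input. For adf1 they were rps1801 and erg5, with changes of 2.19 each. For cdc3 they were lrs1 and pyr1, for cdc8 pdi1 and ade2, for nda2 trr1 and fma2, for atb2 ogm1 and rib3, and for nda3 tif6 and ilv1, all within a distance of 0.23. No member was among the nearest genes of another. The closest members to each other were cdc3 and cdc8, at a distance of 0.52, and the paralogues nda2 and atb2 were 0.97 apart.

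Of 82 other cytoskeleton genes in 9 lists, all 82 were called higher in IP by limma, beside 98.3% of protein-coding genes, so the count says nothing particular about them. Their median change was 3.24, close to the protein-coding median of 3.28. Within the tubulin folding pathway, the 8 genes of the CCT chaperonin, which folds actin and tubulin, had a median change of 2.94 and a narrow range from 2.71 to 3.20, with cct3 the highest (97.3 and 85.4 RPKM in IP, against 6.45 and 12.6 RPKM in input) and cct1 the lowest in mean IP signal (58.9 and 55.9 RPKM in IP, against 5.88 and 10.6 RPKM in input). After centring, 6 of these 8 were called lower in IP, beside 35.0% of protein-coding genes, and with edgeR and TMM all 8, beside 19.4%. These shares are over genes of every input level, and the centred changes include the offset of -0.23. The median input signal of the 8 was 9.12 RPKM. Over protein-coding genes between 5 and 10 RPKM in input, the median change with edgeR and TMM was -0.59 (quartiles -0.935 and -0.27). Over all 82 genes the counts were 33 lower and 1 higher after centring, and 21 lower and 9 higher with edgeR and TMM. cct3 shares 58 nt with sof1 on the same strand.

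The 6 prefoldin genes, which hand unfolded actin and tubulin to CCT, had a median change of 3.16. The lowest in mean IP signal was pac10 (19.7 and 16.9 RPKM in IP, against 1.43 and 2.2 RPKM in input). The highest was gim6 (236 and 276 RPKM in IP, against 24.7 and 55.4 RPKM in input), but 1903 of its 2327 reads in IP replicate 1 are matched by the count of the snoRNA snoZ15 inside it, so its value is not that of the mRNA alone. The 6 tubulin cofactor genes had a median change of 2.90. alp11 was the highest (31.4 and 27.3 RPKM in IP, against 1.12 and 2.54 RPKM in input) and tbc1 the lowest (5.51 and 5.15 RPKM in IP, against 0.108 and 0.149 RPKM in input), and both share nucleotides with a neighbour on the same strand. The input values of tbc1 rest on only 2 and 3 reads.

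On the microtubule side, the 9 genes of the γ-tubulin complex, which nucleates microtubules, had a median change of 3.24. mzt1 was the highest (38.8 and 30.1 RPKM in IP, against 1.12 and 1.56 RPKM in input) and alp6 the lowest (9.74 and 10.4 RPKM in IP, against 0.230 and 0.919 RPKM in input), each overlapped by a gene on its strand. The input values of mzt1 rest on only 2 and 3 reads. The 19 genes of microtubule-associated proteins and motors had a median change of 3.48. mal3, the EB1 homologue, was the highest (34.8 and 33.5 RPKM in IP, against 1.52 and 2.69 RPKM in input) and the kinesin gene klp8 the lowest (8.46 and 6.10 RPKM in IP, against 0.334 and 0.514 RPKM in input). All of these lay below the 3 tubulin genes in IP.

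On the actin side, the 7 genes of the Arp2/3 complex, which nucleates branched actin, had a median change of 3.29. arp2 was the highest (102 and 98.2 RPKM in IP, against 5.57 and 9.09 RPKM in input) and arc5 the lowest (33.0 and 30.0 RPKM in IP, against 2.80 and 3.22 RPKM in input). The 3 formin genes had a median change of 3.54, with cdc12, the ring formin, the highest (25.3 and 25.1 RPKM in IP, against 0.875 and 1.72 RPKM in input) and fus1, the mating formin, the lowest (13.3 and 13.2 RPKM in IP, against 0.188 and 0.348 RPKM in input). The 14 genes of other actin-binding proteins had a median change of 3.09, with cap1 the highest (81.3 and 71.4 RPKM in IP, against 3.94 and 6.34 RPKM in input) and the α-actinin gene ain1 the lowest (18.8 and 12.1 RPKM in IP, against 0.743 and 1.28 RPKM in input). The 10 genes of myosins and ring proteins had a median change of 3.54, with myo1, a type I myosin, the highest (63.6 and 64.4 RPKM in IP, against 5.0 and 8.74 RPKM in input) and myp2 the lowest (15.2 and 11.7 RPKM in IP, against 0.632 and 1.15 RPKM in input). No gene of the lists reached the IP signal of act1.

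**Figure D5:**
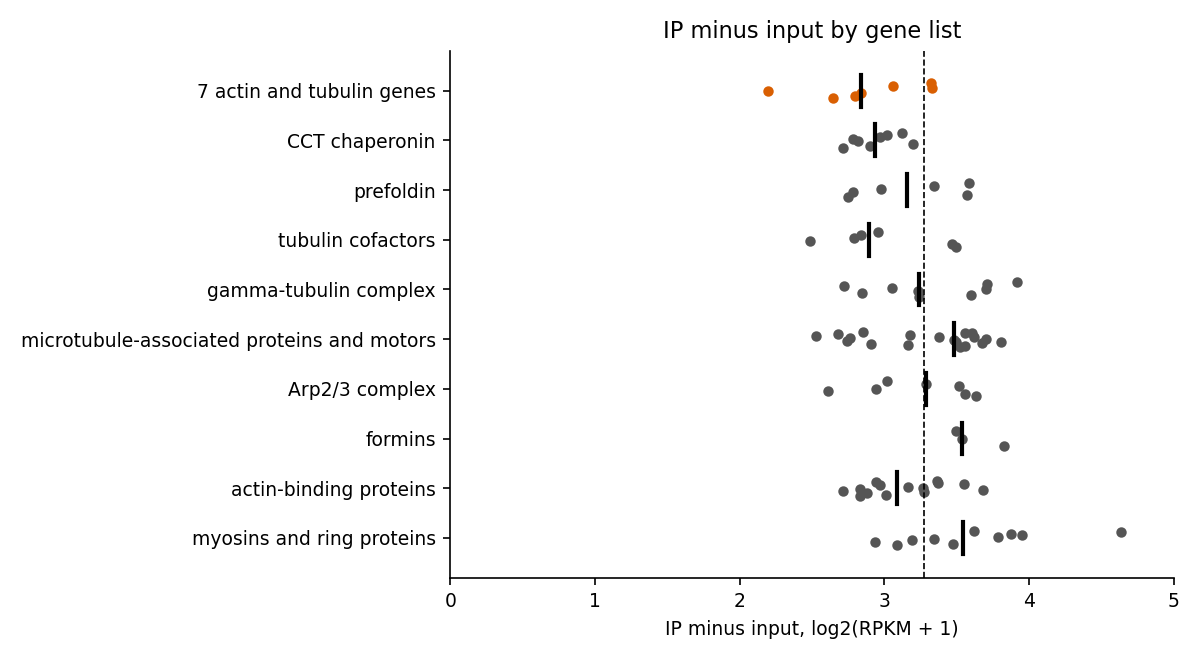
IP minus input change of each gene (log2(RPKM + 1)) for the 7 actin and tubulin genes (orange) and 9 lists of other cytoskeleton genes (grey); points are genes, bars are medians and the dashed line is the protein-coding median of 3.28. The 7 genes have a median of 2.84, and adf1 at 2.19 is the lowest point of the plot.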

How the data were processed

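NET-seq was performed on IP and input RNA from 2 biological replicates of strain YAM2492. A linker was ligated to RNA 3′ ends before fragmentation. Sequencing was single-end, 50 nt. After the 5′ adapter was trimmed, reads that Bowtie placed uniquely on ASM294v2, without splitting them across introns, were kept. How long reads were after trimming is not stated. The authors scaled each library to its uniquely mapped total. What they deposited is a signal, the normalized read count of each feature, with a second set divided by feature length that was not used. Every value was a whole multiple of the library's smallest value above 0 (100% in each library), so whole reads were recovered and put on an RPKM scale anchored at 7100000 reads for IP replicate 1. The absolute RPKM rests on that anchor. In these libraries 3 reads on 1 kb came to 0.305 to 0.423 RPKM. How reads touching several features were counted is inferred from the values, not stated. Of 19343 rows, 10204 were CDS segments, and 28 repeated entries were left out.

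IP and input were compared by limma with a trend on log2(RPKM + 1), leaving out units with 0 reads in all 4 libraries, so that 8912 entered. Benjamini-Hochberg values under 0.05 were called. The pseudocount makes the changes of low genes too small. edgeR and DESeq2 were run on the recovered reads as alternatives, along with other pseudocounts, filters, scalings and left-out libraries. With TMM factors, edgeR called 1312 units in each direction. The fits were tried on simulated counts in which every library had the same total and a small share of units changed, in both directions. That setting differs from these libraries, so the trial says nothing about the calls here. Replicate numbers pair the libraries, since the labels give IP and input the same biological replicate; same-numbered libraries deviated together weakly (r = 0.28 over the 1547 protein-coding genes that had 100 or more input reads, 0.059 over all units). Of 82 list genes, 77 were matched by name and 5 through RefSeq synonyms.

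The members and the lists were chosen with earlier results of these data known. The genes named were the 7 members, for each member the 2 nearest genes over the 4 libraries, the highest and lowest gene of each list in mean IP RPKM, and units overlapping or next to a member. Software was limma 3.58.1, edgeR 4.0.16 and DESeq2 1.42.0 under R 4.3.3, and pandas 2.3.3, scipy 1.17.1 and Biopython 1.88 under Python 3.11.15.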

Additional observations from a re-analysis of the deposited data

How the results depend on the processing

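With the authors' totals the 7 genes kept their direction and calls under both other pseudocounts, with and without filters, without the trend, with protein-coding genes alone and with edgeR, but not under other scalings of the libraries. The direction turned for all 7 under centring, edgeR with TMM and DESeq2, and for some under the other scalings. Centred on the protein-coding median, the changes were -0.86 for act1, -0.71 for cdc3, -0.67 for cdc8, -1.31 for adf1, -0.17 for nda2, -0.44 for atb2 and -0.18 for nda3 (median -0.67, 0 called higher). With edgeR and TMM they were -1.44, -1.20, -1.16, -1.85, -0.61, -0.82 and -0.66 in that order (median -1.16, 0 called higher), and with DESeq2 -1.50, -1.26, -1.23, -1.91, -0.66, -0.88 and -0.71 (median -1.23, 0 called higher). Without tRNA, rRNA and snRNA in the totals, act1 was at -0.54, cdc3 -0.30, cdc8 -0.28 and adf1 -0.96, while nda2 stayed positive and called at 0.30, nda3 was at 0.25 and atb2 at 0.07 (median -0.28, 1 called higher). Quantile normalization gave -0.44 for cdc3, -0.30 for cdc8, -0.84 for adf1, -0.053 for nda2 and -0.45 for atb2 (median -0.30, 1 called higher), and here act1 had the highest change of the 7, at 1.23, and nda3 was at 0.11. Of the 82 list genes, 34 were called after centring (1 higher and 33 lower, beside 12.5% and 35.0% of protein-coding genes), 15 with quantiles (1 and 14, beside 10.9% and 8.52%), 47 without structural RNA (45 and 2, beside 59.1% and 5.35%), 30 with edgeR and TMM (9 and 21, beside 17.4% and 19.4%) and 24 with DESeq2 (6 and 18, beside 9.16% and 15.8%). The replicate block changed no call with the authors' totals (median 2.84, 7 called higher). Paired and centred, the changes were as without the block (median -0.67, 0 called higher). In that fit 37 list genes were called, 3 higher and 34 lower, beside 14.3% and 38.1% of protein-coding genes. Paired with edgeR and TMM the changes were -1.44, -1.19, -1.18, -1.85, -0.60, -0.84 and -0.65 (median -1.18, 0 called higher). There 31 list genes were called, 9 higher and 22 lower, beside 19.9% and 21.4%. These paired fits with other scalings were added after seeing the data. Leaving out 1 library gave a median change between 2.52 and 3.21 and a nda2 share difference from 1.58 to 6.28 percentage points. The nda3 ratio difference then lay between -0.031 and 0.082, at -0.012 without input replicate 1. In the main setting, IP minus input of actin-side less tubulin genes was -0.62, and between -0.65 and -0.59 without 1 library. With a pseudocount of 0.1 RPKM and all libraries it was -0.72. The input libraries, with as few as 74 reads on atb2, limit these ratios.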
